A study of Mus musculus with 6 samples.

Results

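The alpha-arrestin family of the mouse was followed in sciatic nerve through 5 genes, Arrdc1, Arrdc2, Arrdc3, Arrdc4 and Txnip, out of 55335 genes in the deposited table. The members were matched by symbol. The family was chosen by its measured difference between the groups, Arrdc2 being among the largest, so the group differences of the members given below are descriptions and not tests. All 5 symbols were matched to an Ensembl gene ID, and all 5 passed the filter used for testing, with every library of both groups above 1 FPKM (fragments scaled by transcript length and by library size).

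Alpha-arrestins share the arrestin fold with the beta-arrestins that switch off G protein-coupled receptors. Most carry PPxY motifs through which they recruit ubiquitin ligases of the NEDD4 family to membrane proteins, and thereby send receptors and transporters for internalisation or degradation. Txnip also binds reduced thioredoxin and limits glucose uptake, and its transcript is known to follow glucose through the factors MondoA and ChREBP with their partner Mlx.

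The icKO nerves (n = 3) came from mice that were homozygous for a floxed RhoA allele and carried ChAT-CreERT2 (RhoAfl/fl ChATCreERT2+), an inducible Cre expressed from the choline acetyltransferase gene, which is active in cholinergic neurons such as spinal motoneurons. Control nerves (n = 3) came from mice with the floxed alleles only (RhoAfl/fl). Both groups were taken at postnatal day 14, frozen, and sequenced as polyadenylated RNA of the whole nerve. The labels give neither the induction schedule, nor whether control mice also received the inducing drug, nor the hour or feeding state at collection. Nor do they say that the samples of a group were separate mice, and p-values therefore reflect only how these samples spread, which may be technical.

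The depth, estimated from the smallest steps in the FPKM values, was 17300000 to 20600000 fragments per library. Schwann cell transcripts were abundant in every library, with a summed FPKM over 12 markers of 31530 to 36190 in icKO and 29730 to 31880 in control nerves. The driver gene Chat was listed at 0 in all 3 icKO libraries and reached 0.012 FPKM in 1 control library; motoneuron cell bodies lie outside the nerve. Rhoa itself, the floxed gene, had 36.4, 33.6 and 33.2 FPKM in icKO and 36.5, 39.0 and 38.0 FPKM in control nerves and was not called different (adjusted p = 0.195 by limma). The female transcript Xist had 46.1 FPKM in control replicate 2, whereas no other library exceeded 0.028 FPKM. Without control replicate 2 the log2(FPKM + 1) differences described below were 2.99 for Arrdc2, 2.16 for Txnip, 1.17 for Arrdc4, 0.83 for Arrdc3 and 0.40 for Arrdc1. The summed FPKM of 20 skeletal muscle markers was 28.4, 43.1 and 1656 in icKO and 1465, 291.5 and 397 in control libraries, which sets icKO replicate 3 and control replicate 1 apart as rich in muscle RNA. In whole tissue, fewer cells of a type and less RNA per cell cannot be told apart.

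All 5 alpha-arrestin transcripts were higher in icKO nerves in every library, for Arrdc1 by a factor of only 1.0005 between the nearest libraries. Of the 5 genes, 4 (Arrdc2, Txnip, Arrdc4 and Arrdc3) were called higher at an adjusted p under 0.05, and Arrdc1 was not called. Of all 12860 genes tested, 20.8% were called higher and 42.9% were called in either direction, while 28.4% had every icKO library above every control library and 57.2% had no overlap in either direction. Because this contrast led to the choice of the family, nothing is read from the members' count.

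Arrdc2 (ENSMUSG00000002910), an adaptor of the family whose own cargo is little known, was at 78.7, 97.5 and 54.3 FPKM in icKO and 9.75, 5.96 and 7.44 FPKM in control nerves. The lowest icKO library was 5.57 times the highest control library. The mean was 76.9 ± 21.7 FPKM in icKO and 7.72 ± 1.91 FPKM in control nerves (SD, n = 3 each), a ratio of 9.96 and a log2(FPKM + 1) difference of 3.14 (SE 0.24). On this scale it was the 6th largest difference among the genes called higher. The rank depends on the scale. With 0.1 in place of 1 added to the FPKM, the gene Rilp passed Arrdc2, at 3.37 against 3.29. The mean of Arrdc2 exceeded that of 97.2% of the tested genes in icKO nerves and of 61.9% in control nerves.

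Txnip (ENSMUSG00000038393), the thioredoxin-interacting protein, had the highest level of the 5 genes in every library. It was at 216, 208 and 166 FPKM in icKO and 55.1, 31.6 and 33.6 FPKM in control nerves, with no overlap. The mean was 197 ± 26.6 FPKM in icKO and 40.1 ± 13.03 FPKM in control nerves (SD, n = 3 each), a ratio of 4.90 and a log2(FPKM + 1) difference of 2.30 (SE 0.22), 26th among the genes called higher. Measured as a gain in FPKM, it exceeded Arrdc2, with 157 FPKM for Txnip and 69.2 FPKM for Arrdc2. Gm15441, a transcript annotated on the opposite strand across Txnip, was at 0.80, 0.84 and 0.95 FPKM in icKO and 0.11, 0.071 and 0.092 FPKM in control nerves, below the filter for testing. How strand was handled is not given in the sources used here, so fragments of this pair cannot be told apart.

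Arrdc4 (ENSMUSG00000042659), a relative of Txnip that likewise responds to glucose, was lowest of the 5 genes in control nerves. Its level was 7.51, 5.91 and 8.59 FPKM in icKO and 2.67, 3.15 and 2.69 FPKM in control nerves. Groups were well separated, since the lowest icKO library was 1.88 times the highest control library. The mean was 7.34 ± 1.35 FPKM in icKO and 2.83 ± 0.27 FPKM in control nerves (SD, n = 3 each), a ratio of 2.59, and the log2(FPKM + 1) difference was 1.11 (SE 0.13).

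Arrdc3 (ENSMUSG00000074794), known as an adaptor for the ubiquitination of beta-adrenergic receptors, was at 11.3, 10.1 and 12.0 FPKM in icKO and 7.998, 7.39 and 4.18 FPKM in control nerves. The icKO libraries lay close together and the control libraries were spread, with coefficients of variation of 8.49% in icKO and 31.4% in control nerves. The mean was 11.1 ± 0.95 FPKM in icKO and 6.52 ± 2.05 FPKM in control nerves (SD, n = 3 each), with a log2(FPKM + 1) difference of 0.73 (SE 0.21). Its call was lost when any icKO library was left out, with differences of 0.72, 0.79 and 0.68 without icKO replicates 1, 2 and 3. Leaving out control replicate 3 moved the difference most, to 0.48, with the call kept. It was also lost without both muscle-rich libraries, where the difference was 0.83, without a filter and with a replicate block, both with a difference of 0.73.

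Arrdc1 (ENSMUSG00000026972), which recruits the ESCRT protein Tsg101 to the plasma membrane and releases small vesicles there, was at 4.55, 5.74 and 3.88 FPKM in icKO and 3.35, 3.87 and 3.25 FPKM in control nerves. The groups touched, since the lowest icKO and the highest control library differed by a factor of 1.0005. The mean was 4.72 ± 0.94 FPKM in icKO and 3.49 ± 0.33 FPKM in control nerves (SD, n = 3 each). The log2(FPKM + 1) difference of 0.34 (SE 0.13) was not called, but was called, at 0.45, when icKO replicate 3 was left out. Without icKO replicate 2 it was 0.21 and not called. Its level rests on the fewest fragments of the 5 genes, about 96 to 181 per library if all came from the longest annotated transcript, for a counting error of 7.4 to 10.2%. By the same estimate the highest level, that of Txnip, rests on 1840 to 11149 fragments.

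**Figure D1:**
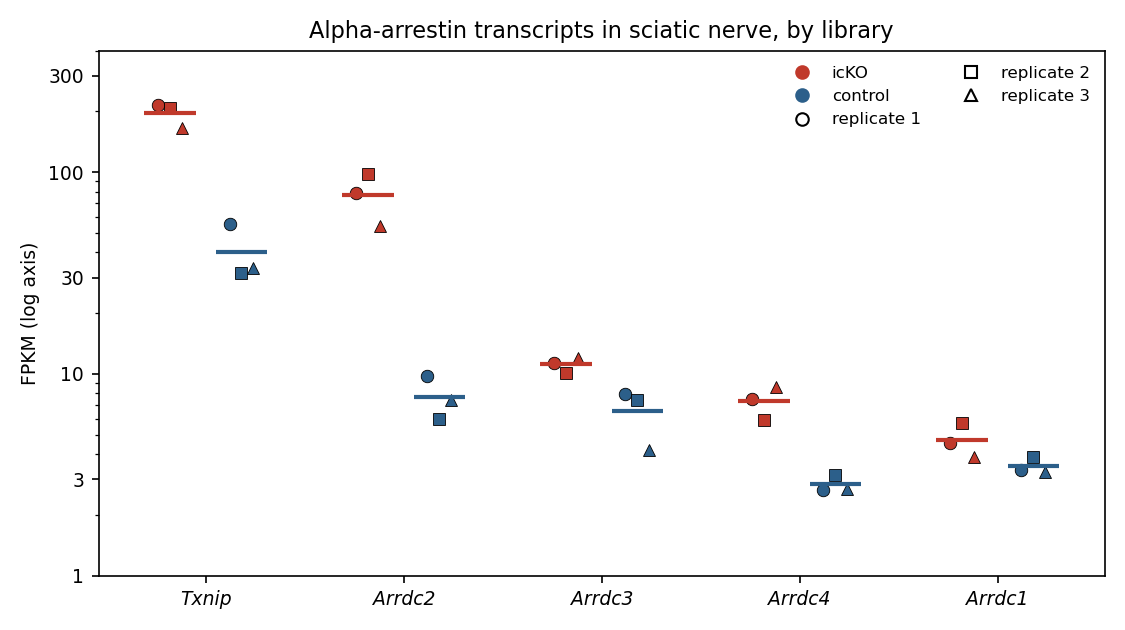
FPKM of the 5 alpha-arrestin genes in each library, on a log axis, with icKO libraries (red) left of control libraries (blue), a marker shape for each replicate and a bar for the mean of 3. Arrdc2 and Txnip show wide gaps between the groups, while the lowest icKO and the highest control library of Arrdc1 nearly coincide.

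FPKM is scaled by transcript length, so levels can be ordered across the 5 genes. In icKO nerves the order of mean levels was Txnip, Arrdc2, Arrdc3, Arrdc4 and Arrdc1, and no neighbours in that order overlapped. In control nerves it was Txnip, Arrdc2, Arrdc3, Arrdc1 and Arrdc4, and Arrdc2 (5.96 to 9.75 FPKM) and Arrdc3 (4.18 to 7.998 FPKM) overlapped. Arrdc2 and Arrdc3 were thus at like levels in control nerves, with ratios of 1.22, 0.81 and 1.78, whereas Arrdc2 was at 6.97, 9.62 and 4.52 times Arrdc3 in the icKO libraries.

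The summed FPKM of the 5 genes was 318, 327 and 245 in icKO and 78.9, 52.0 and 51.2 in control libraries. Txnip made up 66.4 ± 2.53% of that sum in icKO and 65.5 ± 4.53% in control nerves (SD, n = 3 each), so its share differed by less than the spread between libraries. The share of Arrdc2 was 25.6 ± 3.91% in icKO and 12.8 ± 1.58% in control nerves, and each of the 3 other genes had a smaller mean share in icKO than in control nerves, at 3.85 ± 0.94% and 10.8 ± 3.08% for Arrdc3, 2.56 ± 0.86% and 4.90 ± 1.37% for Arrdc4, and 1.59 ± 0.16% and 6.02 ± 1.63% for Arrdc1. The shares of Arrdc3 and Arrdc1 did not overlap between the groups, whereas that of Arrdc4 did, with 3.50% in icKO replicate 3 and 3.38% in control replicate 1. The ratio of Txnip to Arrdc2 was 2.74, 2.13 and 3.06 in icKO and 5.65, 5.31 and 4.52 in control libraries, without overlap.

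**Figure D2:**
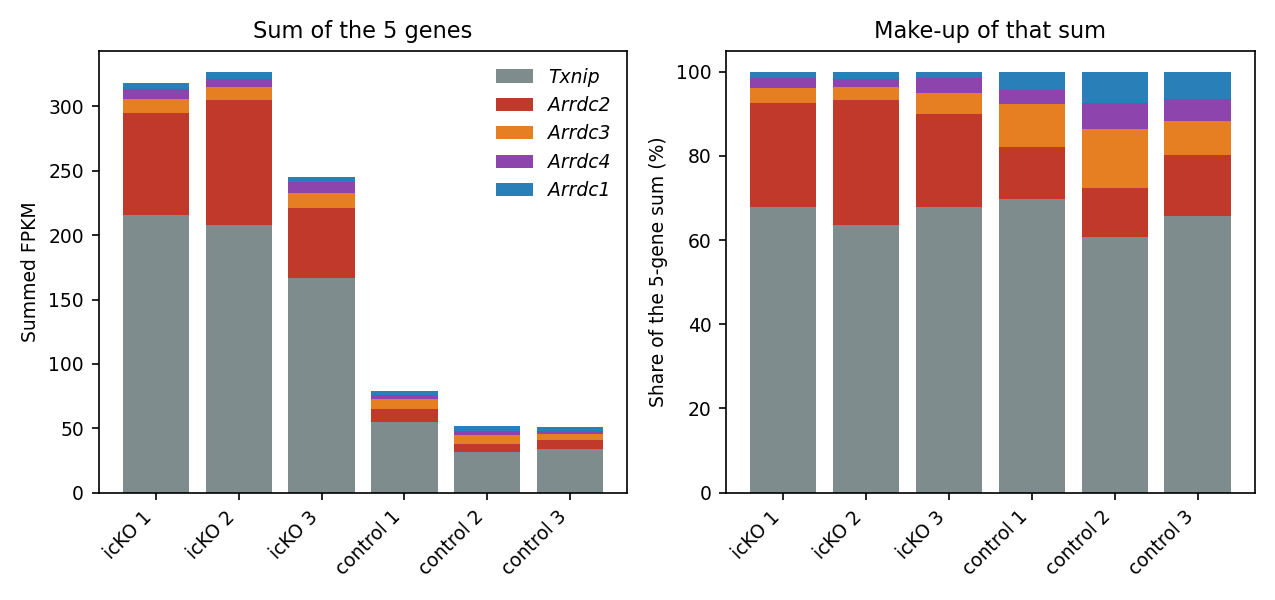
Summed FPKM of the 5 genes (left) and each gene's share of that sum in percent (right), per library, icKO before control. The Txnip share stays between 60.8% and 69.9% in all 6 libraries, while the Arrdc2 share is 22.2% to 29.8% in icKO and 11.5% to 14.5% in control libraries.

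Within groups the members did not move as a block. In icKO nerves, replicate 3 had the lowest Arrdc2, Txnip and Arrdc1 and the highest Arrdc3 and Arrdc4. Among control nerves, replicate 1 had the highest Arrdc2, Txnip and Arrdc3. Arrdc4 was at 2.67 FPKM there and nearly the same in control replicate 3 (2.69 FPKM), against 3.15 FPKM in control replicate 2. The muscle-rich libraries are icKO replicate 3 and control replicate 1. With the mean level of the 18 tested muscle markers as a covariate the log2(FPKM + 1) differences were 3.02 for Arrdc2, 2.28 for Txnip, 1.18 for Arrdc4, 0.80 for Arrdc3 and 0.25 for Arrdc1. Without both muscle-rich libraries they were 3.53, 2.66, 0.97, 0.83 and 0.43, in the same order. The libraries then left still differed in muscle RNA, with marker sums of 28.4 and 43.1 FPKM in icKO and 291.5 and 397 FPKM in control nerves. Leaving out that pair therefore does not remove a muscle difference between the groups.

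The windows upstream of the start sites are shown for Arrdc2, Txnip and Arrdc4, the 3 genes with the largest differences. They run from 250 bases before to 50 bases after the annotated start, 5′ to 3′ on the gene's strand, from RefSeq on build GRCm38.p6, while the submitters' processing notes name GRCm39. Positions count from the start site on the printed strand, at a match's first base. The Txnip window (chr3:96557707-96558006, plus strand) has capitals for 2 CCAAT boxes, a GTAAACA match and a pair of CACGAG copies with the bases between them. The Arrdc4 window (chr7:68749189-68749488, minus strand) has capitals for an E-box, CACGTG, and 6 CCAAT boxes. The Arrdc2 window (chr8:70839671-70839970, minus strand) has capitals for 3 CCAAT boxes and a reversed CACGAG.
Txnip: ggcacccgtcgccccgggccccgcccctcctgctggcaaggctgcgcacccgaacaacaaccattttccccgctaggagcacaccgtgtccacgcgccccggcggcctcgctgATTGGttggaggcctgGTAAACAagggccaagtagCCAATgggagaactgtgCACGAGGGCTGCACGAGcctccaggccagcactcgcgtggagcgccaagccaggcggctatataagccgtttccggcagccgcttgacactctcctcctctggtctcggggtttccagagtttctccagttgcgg
Arrdc4: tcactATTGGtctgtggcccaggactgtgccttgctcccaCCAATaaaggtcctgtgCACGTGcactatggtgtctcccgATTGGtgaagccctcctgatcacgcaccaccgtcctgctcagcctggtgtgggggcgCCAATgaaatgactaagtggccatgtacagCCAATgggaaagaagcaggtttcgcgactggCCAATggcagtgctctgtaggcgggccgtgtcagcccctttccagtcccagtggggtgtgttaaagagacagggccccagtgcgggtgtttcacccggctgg
Arrdc2: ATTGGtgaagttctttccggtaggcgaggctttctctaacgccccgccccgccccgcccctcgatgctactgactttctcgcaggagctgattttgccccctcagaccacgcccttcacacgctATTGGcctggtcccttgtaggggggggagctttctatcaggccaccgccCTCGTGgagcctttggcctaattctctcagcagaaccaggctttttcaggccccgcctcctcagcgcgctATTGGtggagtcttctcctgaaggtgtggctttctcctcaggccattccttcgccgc

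Both strands were searched for 8 motifs, and the letters of the carbohydrate response pair were set after the Txnip window had been read. That pair, CACGAG and CACGAG with 5 bases between them, is the known element of Mondo and Mlx dimers in Txnip. It was at -85 of the Txnip window and in 1 of 32851 promoter windows in all, that of Txnip itself. The form with CACGTG and CACGTG at the same spacing was in 0 windows. A single CACGTG was at -193 of Arrdc4, and 7.15% of all windows hold one. Apart from the copies within the Txnip pair, CACGAG was found on the opposite strand at -77 of Arrdc2 and at 2 places in Arrdc1, and 6.47% of windows hold one. The FoxO letters GTAAACA were at -121 of Txnip, as in 3.65% of windows. The full glucocorticoid receptor palindrome (AGAACA and TGTTCT with 3 bases between them) was in none of the members' windows and in 0.00913% of all, while its relaxed form (GNACA and TGTNC at the same spacing), which includes the full one, was at -172 of Txnip and in 0.475% of windows. CCAAT, the box bound by NF-Y, was found 6 times in Arrdc4, 3 times in Arrdc2 and 2 times in Txnip, and 37.4% of windows hold at least 1. Of the 3 windows of Arrdc3, 2 overlap and hold the same CCAAT, and the other held none of the 8 motifs. A match is a string of letters and not a measured site, and its absence says nothing of elements outside these windows.

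**Figure D3:**
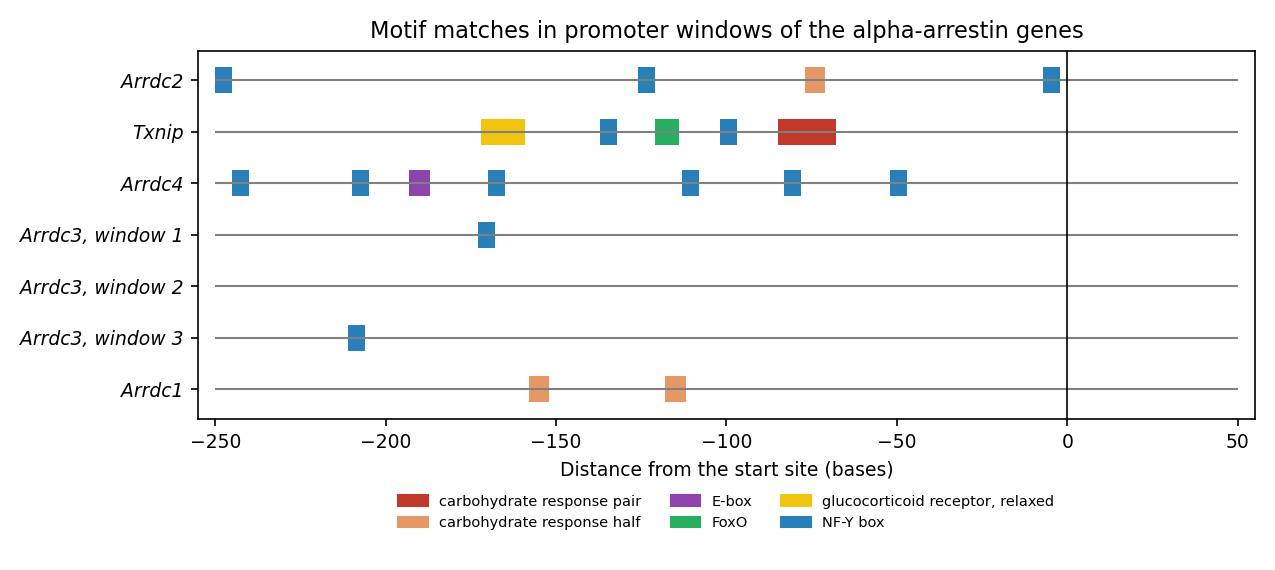
Motif matches in the promoter windows of the 5 genes, by distance from the start site in bases (line at 0), each bar being 1 match on either strand, drawn to its length. Arrdc4 carries 6 NF-Y boxes, and the carbohydrate response pair is drawn for Txnip only.

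Genes whose profiles over the 6 libraries were most like a member's were found as those with the smallest root mean square difference in log2(FPKM + 1), each profile centred on its own mean. Only tested genes with a symbol, without unnamed gene models, entered the search and its medians. A gap between the groups of like size brings genes together in this measure. Nearest to Arrdc2 were Rilp, Hif3a, Map3k6, Depp1 and Otulinl, at 0.19 to 0.26, where the median over the genes searched was 1.63. Rilp, an effector of Rab7 on late endosomes and lysosomes, was at 25.5 FPKM in icKO and 2.33 FPKM in control nerves on average. Hif3a, a subunit of hypoxia-inducible factor, was at 27.2 FPKM in icKO and 1.501 FPKM in control nerves. Depp1, which is induced by FoxO factors and by fasting, was at 29.96 FPKM in icKO and 3.796 FPKM in control nerves. Nearest to Txnip were Hhatl, Klf15 and Klf9, at 0.10 to 0.14 (median 1.21). Klf9 and Klf15, transcription factors known as glucocorticoid targets, were at 119 and 72.4 FPKM in icKO and at 26.3 and 14.7 FPKM in control nerves. Nearest to Arrdc4 were Gadd45g, Mamstr and Nr4a3, at 0.073 to 0.079 (median 0.60). For Arrdc3 they were Hist3h2ba, Tspan5 and Fbxl12, at 0.094 to 0.16 (median 0.49), and for Arrdc1 Creg1, Thap11 and Snx33, at 0.050 to 0.054 (median 0.31). Between members the smallest root mean square differences were 0.31 for Arrdc3 and Arrdc4, 0.36 for Arrdc1 and Arrdc3, and 0.46 for Arrdc2 and Txnip.

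**Figure D4:**
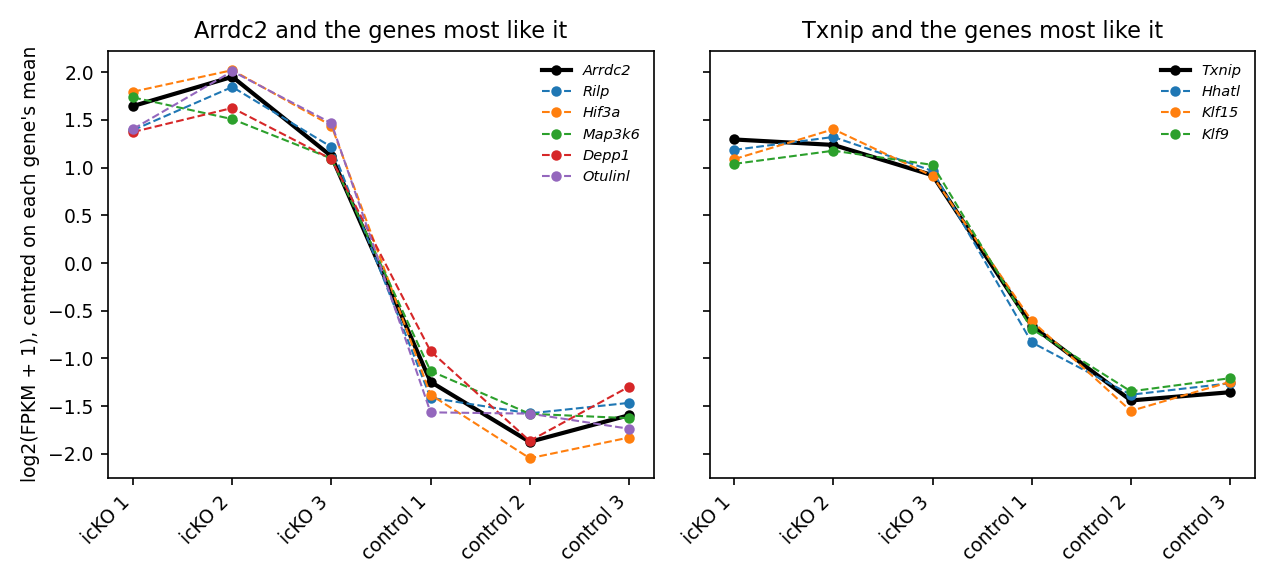
Profiles of Arrdc2 (left) and Txnip (right) with their nearest genes over the 6 libraries, as log2(FPKM + 1) centred on each gene's mean, icKO before control. Lines only help the eye, since libraries of a group have no order, and every profile shown has its icKO values above its control values.

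Among other proteins of the arrestin fold, 6 of 9 were tested, 1 rose and 1 fell, with a median log2(FPKM + 1) difference of 0.02. Over all tested genes the median was -0.01, and 20.8% were called higher and 22.1% lower. The counts of each list below are to be read beside these shares. Arrb2, beta-arrestin 2, was at 7.46 ± 0.65 FPKM in icKO and 9.07 ± 0.25 FPKM in control nerves (limma, Benjamini-Hochberg adjusted p = 0.0487). When single libraries were left out it remained called without icKO replicate 2 and in no other case, and it also lost its call under several scalings (adjusted p 0.031 to 0.14 over all alternatives). Rgp1, which acts in Golgi traffic, was at 11.02 ± 0.42 FPKM in icKO and 8.77 ± 0.52 FPKM in control nerves (adjusted p = 0.0213), and its call was lost without icKO replicate 1 or 2, without control replicate 2 or 3 and with the muscle covariate (adjusted p 0.016 to 0.088 over all alternatives). Arrdc5, also an alpha-arrestin, was listed at 0 in all 3 icKO libraries and reached at most 0.037 FPKM in control libraries.

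Of 10 tested NEDD4-family ligases, which alpha-arrestins recruit, and adaptors, 1 rose, 2 fell and 7 were not called, with a median log2(FPKM + 1) difference of -0.08. Wwp2, a ligase of the family, fell to 6.94 ± 0.38 FPKM in icKO, against 9.42 ± 0.53 FPKM in control nerves (SD, n = 3 each, limma, Benjamini-Hochberg adjusted p = 0.00896). Ndfip2, a membrane adaptor that activates these ligases, fell to 11.3 ± 0.82 FPKM in icKO, against 17.7 ± 0.85 FPKM in control nerves (adjusted p = 0.00246). Hecw2 rose to 6.06 ± 1.23 FPKM in icKO, against 3.87 ± 0.30 FPKM in control nerves (adjusted p = 0.0199), and was not called without control replicate 2 or 3 (adjusted p 0.018 to 0.069 over all alternatives). Without control replicate 1 the list held 2 rises. Itch, chosen after its values were seen as a known ligase for Txnip, was at 10.8 ± 0.54 FPKM in icKO and 12.6 ± 0.79 FPKM in control nerves (adjusted p = 0.0896).

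The ESCRT list, which serves vesicle budding and the sorting of ubiquitinated cargo, held 3 rises, 4 falls and 12 genes not called among 19 tested, with a median log2(FPKM + 1) difference of -0.05. Vps37d, a subunit of ESCRT-I, and Vps4b, the ATPase that recycles the complexes, rose, with log2(FPKM + 1) differences of 0.75 (SE 0.14) and 0.47 (SE 0.09), while Ubap1, another ESCRT-I subunit, and Pdcd6ip, which encodes ALIX, fell, with differences of -0.48 (SE 0.08) and -0.44 (SE 0.08, limma, Benjamini-Hochberg adjusted p 0.00428 to 0.00797 for these 4 genes). Leaving out single libraries left 2 or 3 rises and 2 to 5 falls. Falls numbered 2 without icKO replicate 1 or without any single control library, and likewise with quantile scaling, the replicate block and the muscle covariate. Tsg101, named after its values were seen as the partner of Arrdc1, was at 23.7 ± 1.58 FPKM in icKO and 19.9 ± 1.08 FPKM in control nerves (adjusted p = 0.0609), and was called higher without icKO replicate 1 (adjusted p = 0.047, and 0.047 to 0.19 over all alternatives).

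The thioredoxin list joined the thioredoxin system, the partner pathway of Txnip, with related genes such as Txnl4a and Ddit4. Of its 17 tested genes 9 fell, 1 rose and 7 were not called, with a median log2(FPKM + 1) difference of -0.30. Prdx1, a peroxiredoxin that thioredoxin reduces, fell to 46.3 ± 6.90 FPKM in icKO, against 95.7 ± 6.42 FPKM in control nerves (log2(FPKM + 1) difference -1.04, SE 0.12, limma, Benjamini-Hochberg adjusted p = 0.001485). Txnl4a, a thioredoxin-fold protein of the spliceosome, fell to 1.298 ± 0.068 FPKM in icKO, against 3.45 ± 0.13 FPKM in control nerves. The member that rose was Ddit4, an inhibitor of mTOR signalling that can form a complex with Txnip, at 184 ± 38.9 FPKM in icKO and 42.8 ± 9.97 FPKM in control nerves. Txn1, the cytosolic thioredoxin itself and named after its values were seen, was at 37.1 ± 2.02 FPKM in icKO and 46.2 ± 4.75 FPKM in control nerves (adjusted p = 0.0475). It was not called without icKO replicate 1 or 2 or control replicate 2 or 3, without a filter, under quantile scaling, with the muscle covariate or the replicate block, or without a variance trend (adjusted p 0.020 to 0.15 over all alternatives). When single libraries were left out, 6 to 9 genes of the list fell, and 2 rose without icKO replicate 2.

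Among the transporters and receptors reported as cargo of alpha-arrestins, 9 of 11 were tested, 1 rose, 2 fell and 6 were not called, with a median log2(FPKM + 1) difference of 0.12. Slc2a4, the insulin-responsive glucose transporter, rose to 10.3 ± 2.03 FPKM in icKO, against 4.65 ± 0.25 FPKM in control nerves (limma, Benjamini-Hochberg adjusted p = 0.00272). Slc2a1, the basal glucose transporter and a cargo of Txnip, was at 56.1 ± 3.68 FPKM in icKO and 51.4 ± 2.41 FPKM in control nerves and was not called (adjusted p = 0.279). The beta-adrenergic receptor gene Adrb3, a gene of fat cells, fell to 0.13 ± 0.071 FPKM in icKO, against 2.43 ± 0.41 FPKM in control nerves (adjusted p = 0.00058). Falls in the cargo list numbered 1 without icKO replicate 1 or 2, without control replicate 2 or 3, with the replicate block or the muscle covariate and without a filter. Of 5 tested glucose transporter genes, 2 rose (Slc2a4 and Slc2a8), Slc2a6 fell and 2 were not called, with the same median of 0.12. Slc2a8, an intracellular transporter, was at 9.48 ± 1.22 FPKM in icKO and 5.53 ± 0.099 FPKM in control nerves, and Slc2a6 was at 0.86 ± 0.31 FPKM in icKO and 3.87 ± 0.28 FPKM in control nerves. Without control replicate 1 the transporter list held 2 falls.

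Of 9 tested Mondo and Mlx factors and targets, 3 rose, 1 fell and 5 were not called, with a median log2(FPKM + 1) difference of 0.06. Mlxip, which encodes MondoA, was at 8.15, 7.12 and 9.83 FPKM in icKO and 2.90, 3.02 and 2.15 FPKM in control nerves, with no overlap (log2(FPKM + 1) difference 1.34, SE 0.14, limma, Benjamini-Hochberg adjusted p = 0.00108). Its dimer partner Mlx was at 4.36 ± 0.41 FPKM in icKO and 5.41 ± 0.83 FPKM in control nerves (adjusted p = 0.120), and its relative Mlxipl, which encodes ChREBP, at 1.38 ± 0.44 FPKM in icKO and 2.08 ± 0.41 FPKM in control nerves (adjusted p = 0.111). Klf10 and the glycolytic regulator Pfkfb3 rose, to 16.95 ± 5.69 and 5.72 ± 0.90 FPKM in icKO, against 4.91 ± 1.03 and 3.41 ± 0.75 FPKM in control nerves. Pfkfb3 was not called without control replicate 2 or 3 (adjusted p 0.010 to 0.063 over all alternatives). Gpd1, glycerol-3-phosphate dehydrogenase, fell to 19.7 ± 4.33 FPKM in icKO, against 70.7 ± 5.82 FPKM in control nerves. Fat cell transcripts were lower in the same libraries, with 10 of 11 tested adipocyte markers called lower, none of the 11 called higher, and a summed FPKM over 12 markers of 142, 114 and 204 in icKO and 601, 621 and 530 in control libraries. The marker Adipoq was at 9.79, 6.12 and 13.05 FPKM in icKO and 45.9, 50.1 and 52.8 FPKM in control nerves. Without icKO replicate 3 the Mondo and Mlx list held 3 falls. The part of fat cell RNA in the values of Gpd1, Adrb3 and Slc2a4 was not tested.

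Genes of the glucocorticoid and FoxO responses were mostly called higher, against 20.8% of all tested genes, in lists made with these results known. Txnip is itself a known glucocorticoid-induced gene. Whether either response has a part in the alpha-arrestin differences was not tested. Of 15 tested glucocorticoid response genes 14 rose and 1 fell, with a median log2(FPKM + 1) difference of 1.90, and Sgk1 and Fkbp5 were at 230 ± 21.5 and 21.8 ± 2.49 FPKM in icKO, against 35.9 ± 15.2 and 3.02 ± 0.72 FPKM in control nerves. The gene that fell was Nr3c1, the glucocorticoid receptor itself, at 11.2, 12.99 and 7.12 FPKM in icKO and 16.4, 19.4 and 19.7 FPKM in control nerves, and it was not called without control replicate 2 or 3 (limma, Benjamini-Hochberg adjusted p 0.0024 to 0.065 over all alternatives). Of 15 tested FoxO factors and response genes 11 rose, none fell and 4 were not called, with a median log2(FPKM + 1) difference of 0.67, led by Pdk4, an inhibitor of pyruvate oxidation, and Klf15. Pdk4 was at 41.1 ± 5.71 FPKM in icKO and 6.71 ± 2.36 FPKM in control nerves. Pdk4 is in both lists, and Klf15, counted here only with the FoxO genes, is also a known glucocorticoid target. Ddit4 of the glucocorticoid list also stands in the thioredoxin list, and Slc2a1 and Slc2a4 are in both transporter lists.

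**Figure D5:**
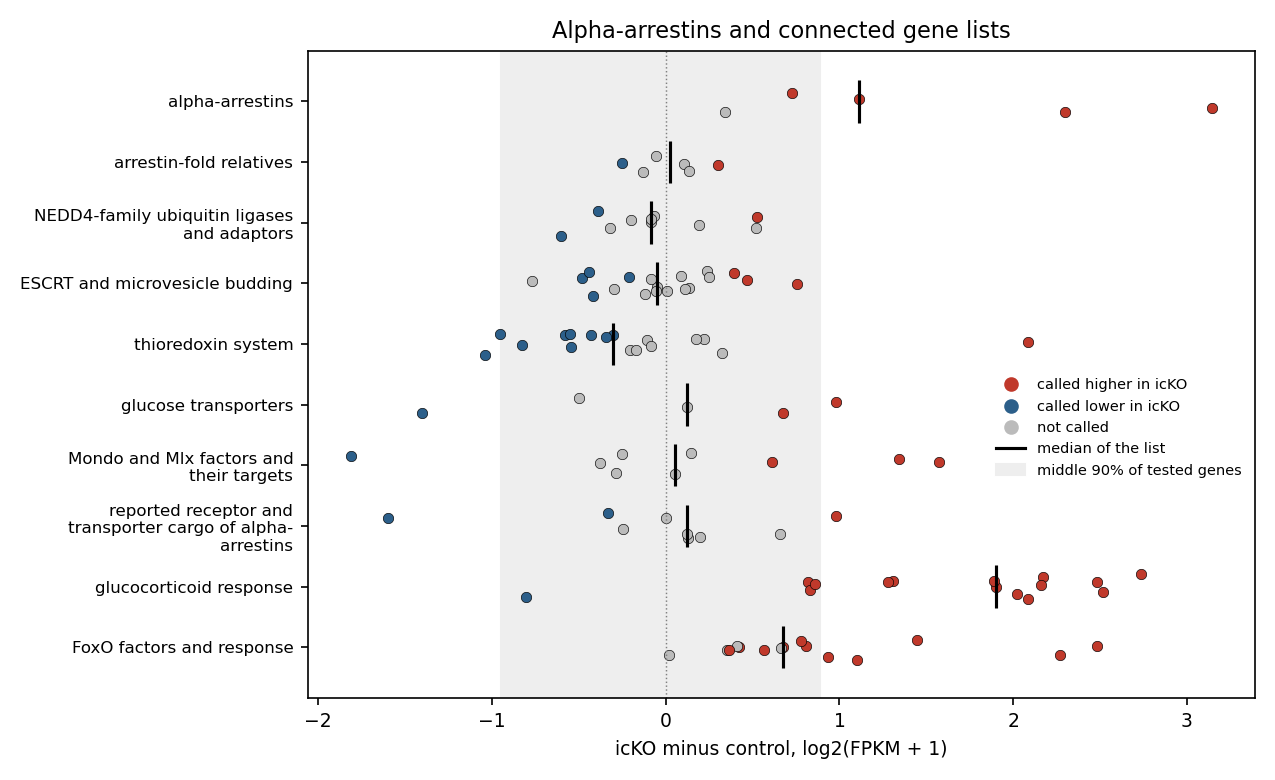
Difference between icKO and control in log2(FPKM + 1) for each tested gene of the family and of the connected lists, red where called higher, blue where called lower and grey where not called, with a bar at each list's median and a band over the middle 90% of all tested genes. Glucocorticoid response genes lie mostly above the band, while the ligase and ESCRT genes lie inside it.

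Markers of other cell types gave a mixed background to these values. Over all tested genes 20.8% were called higher and 22.1% lower. Of 12 tested Schwann cell markers 3 were called higher and 3 lower, and of 9 tested macrophage markers and 6 tested blood markers 0 were called by limma and 0 had an unadjusted p under 0.05. Among 10 tested endothelial markers 1 was called higher and 4 lower, and among 10 fibroblast markers 2 and 4. Of 5 tested neuronal markers 3 were called higher, with a summed FPKM over 10 markers of 22.8 to 30.6 in icKO and 11.3 to 13.1 in control libraries. The 5 are named here after their values were seen. Nefl and Nefm were at 12.6 and 4.43 FPKM in icKO, against 2.10 and 1.14 FPKM in control nerves. Prph, also called, was at 4.51 and 3.425 FPKM. Tubb3 (2.93 and 2.88 FPKM) and Stmn2 (1.69 and 1.94 FPKM) were not called, so the sum does not speak for all neuronal markers. Only 1 of 18 tested skeletal muscle markers was called, Pvalb, named after its values were seen, which was lower, while Acta1 was at 2.15, 6.07 and 771 FPKM in icKO and 309, 61.6 and 80.6 FPKM in control nerves. Whether any of these cell types carries the alpha-arrestin differences was not tested.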

How the data were processed

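The authors deposited FPKM values in 1 table (55335 Ensembl genes, 6 libraries). The build GRCm39 and the tools DESeq2 1.16.1, StringTie 1.3.1c, STAR and FastQC 0.11.2 appear in the submitters' processing notes, without role or order. Annotation release, strand handling and multiple mapping: not given in the sources used here. Symbols came from GENCODE M21 for 55154 IDs. The table gives no counts. Depth was estimated from 34186 genes with 1 transcript, among FPKM under 0.3. The commonest value of FPKM times length within a fixed range was taken as 1 fragment. The estimate could therefore fall only within the limits of that range.

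A filter on the mean over all 6 libraries, at 1 FPKM, left 12860 genes, which were tested on log2(FPKM + 1) with limma 3.58.1 in R 4.3.3 (two-sided moderated test, variance trend, no covariate), with Benjamini-Hochberg adjustment over all of them and calls at an adjusted p under 0.05. This scale understates the change of low genes. Rose and fell refer to calls in icKO relative to control. The procedure was also run on simulated data. These had independent noise and few changed genes, unlike the data here, so no support is drawn from that run.

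The members, the 9 pathway lists and 8 cell type lists were chosen with earlier results of these data known, so they are no independent support. All 223 list entries were matched to an ID. The naming rule took the members, Rhoa and Chat, every called gene of a pathway list with at most 4 calls or else the 2 largest differences each way, the 5 genes most like Arrdc2 and the 3 most like each other member. Some genes that the rule names are not reported here. Figures were drawn with matplotlib 3.10.9. In 19 alternatives, libraries were left out singly or (the muscle-rich pair) together; a muscle covariate or a replicate block was added; the variance trend was dropped or made robust; values were scaled by quantiles, to TPM or by median ratios; the pseudocount was 0.01 or 0.1; the filter was dropped or set at 5 FPKM; or calls were made at 0.1.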

Additional observations from a re-analysis of the deposited data

How the results depend on the processing

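Over 19 alternatives the differences of Arrdc2 (2.95 to 3.53), Txnip (2.16 to 2.66) and Arrdc4 (0.97 to 1.36 on the log2 scale) kept their direction and call. Leaving out single libraries gave 0.48 to 0.88 for Arrdc3 and 0.21 to 0.45 for Arrdc1. Arrdc3 was not called without a filter (0.73), with the replicate block (0.73) or without both muscle-rich libraries (0.83), and Arrdc1 was called at an adjusted p under 0.1 (0.34). At a mean of at least 5 FPKM, where fewer genes are tested, 3308 genes were called, 1696 higher and 1612 lower, against 5516, 2670 and 2846. Leaving out single libraries gave 3750 to 5458 calls, 1838 to 2558 higher and 1912 to 2900 lower. Replicate numbers showed no sign of pairing the samples. The deviations of same-numbered libraries correlated at -0.10, 0.043 and -0.055, and of the icKO libraries replicate 2 alone correlated best with its own number. With 3 libraries per group this check cannot exclude a pairing. With the replicate block 4596 genes were called. Arrdc1 was not tested at the filter of 5 FPKM. FPKM without counts leaves the precision of low genes such as Arrdc1 and Arrdc4 uncertain.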
